A study of Mus musculus with 17 samples.

Results

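Interferon-stimulated genes are genes whose transcription rises when a cell is exposed to interferon, and 45 of them, taken by symbol from the 23420 genes of the count table, were followed in 17 RNA sequencing libraries of mouse cells. All cells derive from C57BL/6 mice with a knock-in of R172H, a mutant allele of the tumour suppressor gene Trp53. Mesenchymal stem cells (MSC) cultured from bone marrow gave 3 libraries. Tumours of such cells gave 6 libraries of first-generation lines (TL1), and tumours grown from injected TL1 cells gave 4 libraries of a second generation (TL2). Titles number the MSC, TL1 and TL2 libraries from 1 to 3, and libraries of a group that share a number are lettered a and b here. Whether libraries that share a number are separate lines is not stated. Each TL1 or TL2 library is called a line below, and the main tests treat them as separate. The last libraries are 2 clones of first-generation line cells labelled as p53 mutant (Mut clones) and 2 clones labelled as p53 knockout (KO clones). Every sample is labelled untreated, so no group received interferon. The labels name neither the tumour line from which the clones were derived nor how p53 was knocked out. Every sample has the same label of passages 2 to 20. Separate animals or cultures are not stated for the libraries of a group, so that p-values reflect how much these libraries vary, which may be technical. MSC cultures grew in MSC medium, and tumour-derived cells grew over agar in medium containing leukaemia inhibitory factor, so culture and cell type cannot be told apart in that comparison.

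Interferons are secreted proteins that warn cells of infection. Type I interferons bind the receptor made of Ifnar1 and Ifnar2, the kinases Jak1 and Tyk2 then phosphorylate Stat2, and this joins Irf9 in a complex that binds interferon-stimulated response elements (ISRE) near its target genes. Type II interferon binds Ifngr1 and Ifngr2 and acts at gamma-activated sites (GAS). The induced proteins block viral entry, translation and replication, degrade RNA, attract T cells and, in the case of Irf7 and the sensors of RNA, feed back on interferon production.

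Library totals ranged from 12215025 to 15962341 counts, and levels are given as counts per 1e6 (CPM), with library sizes corrected by edgeR's TMM factors. Trp53 itself was counted at 198 to 263 CPM in MSC, 123 to 311 CPM in the tumour lines, 357 and 278 CPM in the Mut clones and 80.5 and 89.5 CPM in the KO clones, and it fell by 1.89 on the log2 scale (SE 0.23) between the clones by edgeR's quasi-likelihood test (adjusted p = 0.00259). Both KO clones had less Trp53 RNA than every other library, and neither was at 0. The ribosomal precursor Rn45s made up 4.14% of KO clone 2 and at most 1.59% of any other library. The summed level of 13 mesenchymal stromal markers lay between 18987 and 27102 CPM in MSC, above every tumour line (2590 to 10880.4 CPM). Fewer responding cells and less RNA per cell cannot be told apart in these bulk libraries.

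Promoters are shown because 28 of the 45 genes had a Pearson correlation of at least 0.9 with the median member over the 17 libraries, and the response elements are the sequence that interferon signalling is known to act through. Of 13640 genes ranked outside the members and the interferon pathway lists, the 3rd best had 0.896. Each member also enters that median. Whether the elements have a part in these correlations was not tested. RefSeq promoter windows (GRCm38.p6, 250 bases before to 50 after a start site) were matched for 33 of the 45 genes. The ISRE core GAAANNGAAA, searched on both strands, was found in 17 of these 33 genes (51.5%), against 3.99% of all 27025 genes with a window and 3.44% of the 32851 windows. The shorter GAS core TTCNNNGAA, which can share bases with an ISRE, was found in 8 of the 33 genes (24.2%) and in 9.55% of all genes. The longer palindrome TTTCNNNGAAA was found in Irf1 and no other matched member, against 0.903% of all genes. Below are the 250 bases upstream of the start site of 5 members, 5′ to 3′ on the gene's strand, with ISRE core matches in capitals, and for Irf1 the longer GAS match in capitals. They lie at chr4:156200819-156201068 (minus strand), chr19:34640639-34640888 (plus), chr12:26456453-26456702 (minus), chr5:92348890-92349139 (minus) and chr11:53769764-53770013 (plus).
Isg15: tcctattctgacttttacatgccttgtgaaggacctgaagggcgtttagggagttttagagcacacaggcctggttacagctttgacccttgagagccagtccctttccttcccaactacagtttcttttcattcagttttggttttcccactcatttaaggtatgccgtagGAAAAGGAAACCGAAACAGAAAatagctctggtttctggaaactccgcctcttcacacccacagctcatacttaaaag
Ifit1: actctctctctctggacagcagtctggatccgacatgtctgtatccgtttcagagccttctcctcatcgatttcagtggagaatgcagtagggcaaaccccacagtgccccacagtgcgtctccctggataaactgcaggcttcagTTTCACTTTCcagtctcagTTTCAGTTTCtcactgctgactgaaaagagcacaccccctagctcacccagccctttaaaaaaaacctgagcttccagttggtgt
Rsad2: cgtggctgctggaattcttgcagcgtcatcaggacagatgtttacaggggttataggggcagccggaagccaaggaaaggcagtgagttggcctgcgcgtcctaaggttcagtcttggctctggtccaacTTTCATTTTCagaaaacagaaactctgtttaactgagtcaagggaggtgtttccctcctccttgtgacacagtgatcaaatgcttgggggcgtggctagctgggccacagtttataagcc
Cxcl10: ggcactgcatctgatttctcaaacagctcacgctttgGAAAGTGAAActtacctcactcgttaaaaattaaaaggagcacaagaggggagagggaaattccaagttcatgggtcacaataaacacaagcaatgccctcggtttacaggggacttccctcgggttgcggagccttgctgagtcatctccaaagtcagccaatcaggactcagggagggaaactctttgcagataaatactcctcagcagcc
Irf1: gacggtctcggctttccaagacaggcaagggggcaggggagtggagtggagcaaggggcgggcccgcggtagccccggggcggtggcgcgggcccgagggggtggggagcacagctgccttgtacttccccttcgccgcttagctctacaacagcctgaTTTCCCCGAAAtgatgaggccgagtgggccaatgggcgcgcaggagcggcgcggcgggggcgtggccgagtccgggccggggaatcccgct
Counted from the start site, the first base of a match lay at -78, -72 and -66 in Isg15, where 3 matches overlap, at -104 and -85 in Ifit1, at -120 in Rsad2 and at -213 in Cxcl10. Over the 17 genes there were 26 matches, with first bases from -222 to 32 and 18 of them within 150 bases upstream. A match is a description of the letters and was not tied to binding in these cells.

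The level of the 45 genes varied more between libraries of one group than that of most genes. Across the 10 tumour lines the SD of log2(CPM + 0.5) had a median of 1.603 over the members, against 0.47 over the 13796 genes that passed the expression filter, and 44 of the 45 members lay above that value. The exception was Irf1, with an SD of 0.26, and the widest was Ifi44 at 2.96. Median member levels were 9.86, 52.3 and 44.6 CPM in MSC 1, 2 and 3, from 6.38 to 90.9 CPM in TL1, and 5.65, 8.35, 9.36 and 151 CPM in TL2 1, 2a, 2b and 3. The clones had medians of 149.6 and 60.7 CPM (Mut) and of 1.33 and 2.07 CPM (KO). The high medians belonged to TL2 3, TL1 2a and the Mut clones, and the KO clones had the lowest of the 17. Together the 45 genes took 1.15% of the counts of TL2 3 and 0.0338% of those of KO clone 1.

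**Figure D1:**
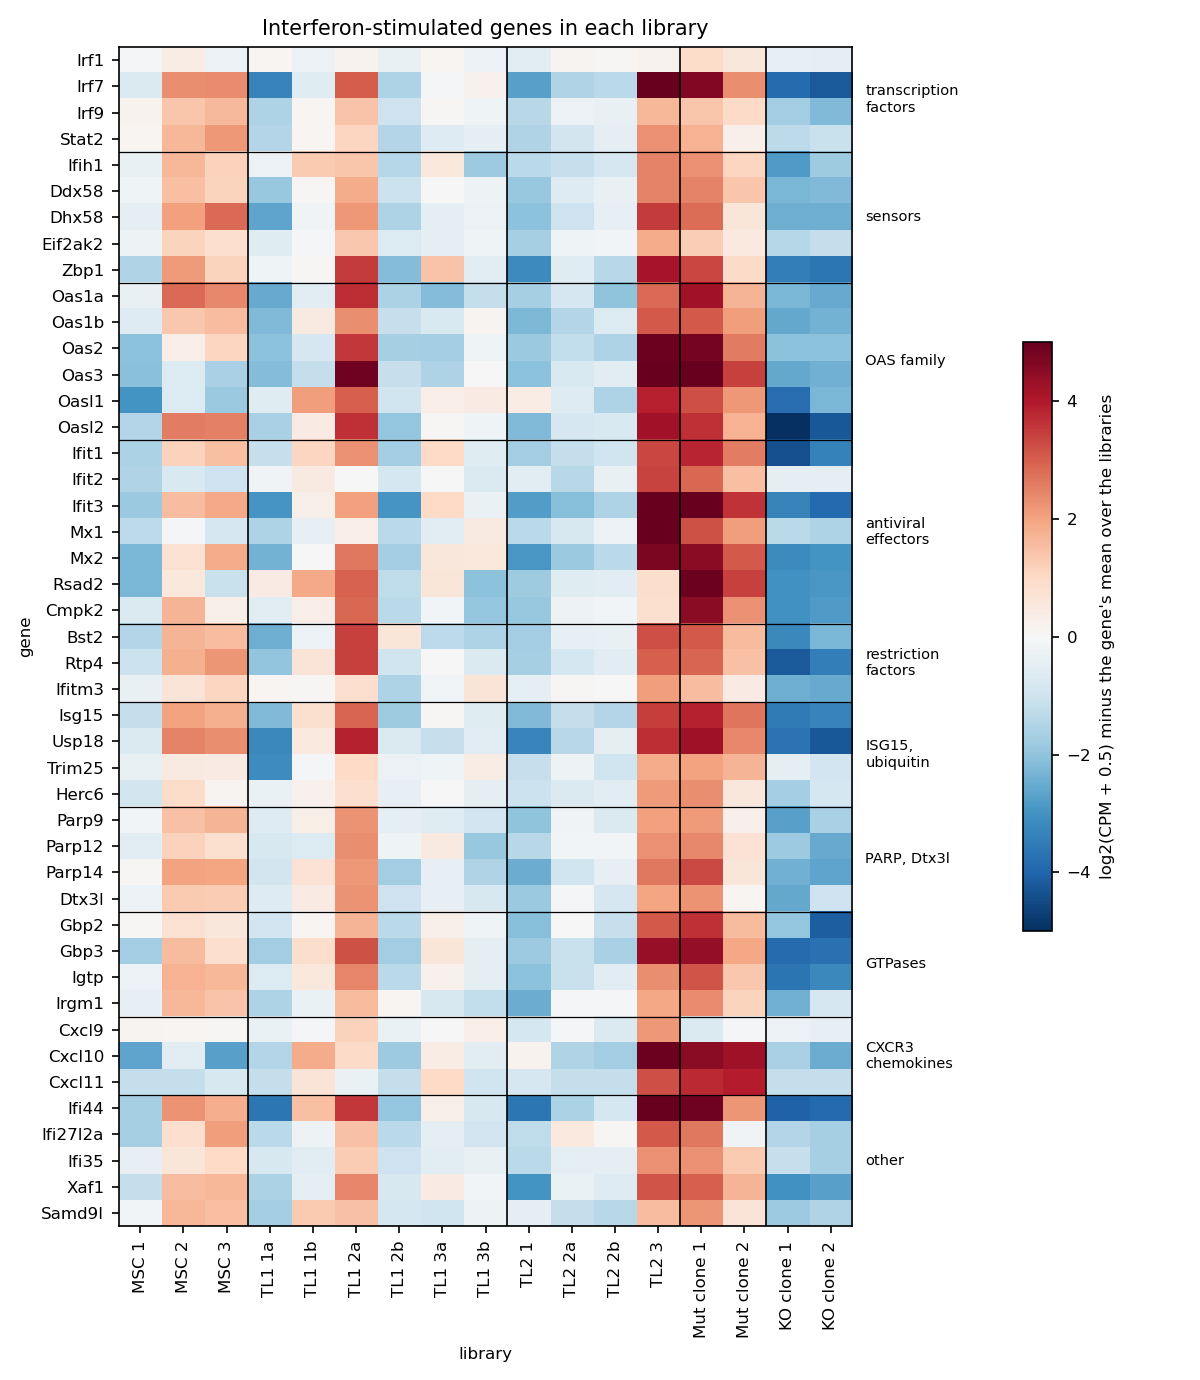
Rows are the 45 interferon-stimulated genes by role and columns the 17 libraries; colour is log2(CPM + 0.5) minus the gene's mean over the libraries, with the scale ending at 5 in each direction. TL2 3, TL1 2a and the Mut clones are red in most rows, MSC 2 and 3 more weakly so, and the KO clones are blue in most rows.

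Libraries that share a line number often differed in level. TL1 2a was above TL1 2b for 45 of 45 members (background 48.1% of genes), with a median log2 difference of 3.23. TL2 3 was above both TL1 3a and TL1 3b for 45 of 45 (background 32.1%), with a median of 3.24. In contrast, the median difference was 0.38 between TL1 3a and TL1 3b and -0.03 between TL2 2a and TL2 2b. TL2 3 was the highest of the 10 tumour lines for 35 members (background 12.5%), and TL1 2a was the highest for the other 10, which were Oas1a, Rsad2, Usp18, Bst2, Parp9, Parp12, Dtx3l, Cmpk2, Igtp and Rtp4. Among the MSC, library 1 was the lowest for 41 members (background 27.8%), with a median difference of 1.83 between it and the other two. The exceptions there were Irf1 and the chemokines Cxcl9, Cxcl10 and Cxcl11. TL1 1b was above TL1 1a for 43 (background 49.1%), Irf1 and Ifitm3 excepted, with a median of 1.58. Mut clone 1 was above Mut clone 2 for 43 members (background 48.2%), with a median of 1.48. These pairs of single libraries have no replicate check.

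KO clones were compared with Mut clones, which differ in their p53 label. The p53 protein was not measured here, and Trp53 RNA was still at 80.5 and 89.5 CPM in the KO clones. With 2 clones on each side and no parent line named, p53 status cannot be told apart from differences between clones or parent lines. Of 44 members tested, 43 were called lower in the KO clones (edgeR adjusted p under 0.05) and none was called higher. Changes between groups are given on the log2 scale throughout. Isg15, which encodes a ubiquitin-like tag, fell by 7.005 (SE 0.52) on the log2 scale, the chemokine gene Cxcl10 fell by 6.48 (SE 0.39), and Irf1, the least changed, fell by 1.18 (SE 0.23). Over all 12238 genes tested, 12% were called lower and 26.1% were called in either direction, at an adjusted p under 0.05 in edgeR's quasi-likelihood test. In all 44 tested members both KO clones lay below both Mut clones, as did 35% of all genes. The median log2 change was -5.92 over the members and 0.005 over all genes. Dtx3l, a ubiquitin ligase partner of Parp9, changed by -3.24 (SE 0.97) and missed the threshold (adjusted p = 0.0703). Cxcl9 was too low to be tested, at 0.289 and 0.711 CPM in the Mut clones and 0.549 and 0.477 CPM in the KO clones.

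The direction held for all 44 members in every alternative fit, but the number called did not. Leaving out KO clone 1 left 24 called lower and leaving out KO clone 2 left 25, with the lone clone assumed to vary like the others, and a fit of all 17 libraries, in which the spread of the tumour lines enters, called 5 (Rsad2, Irf1, Cmpk2, Igtp and Ifitm3). Library totals in place of TMM kept 43 members but turned the split over all genes from 1734 higher and 1466 lower to 1472 and 1816, with the median of all genes at -0.13.

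**Figure D2:**
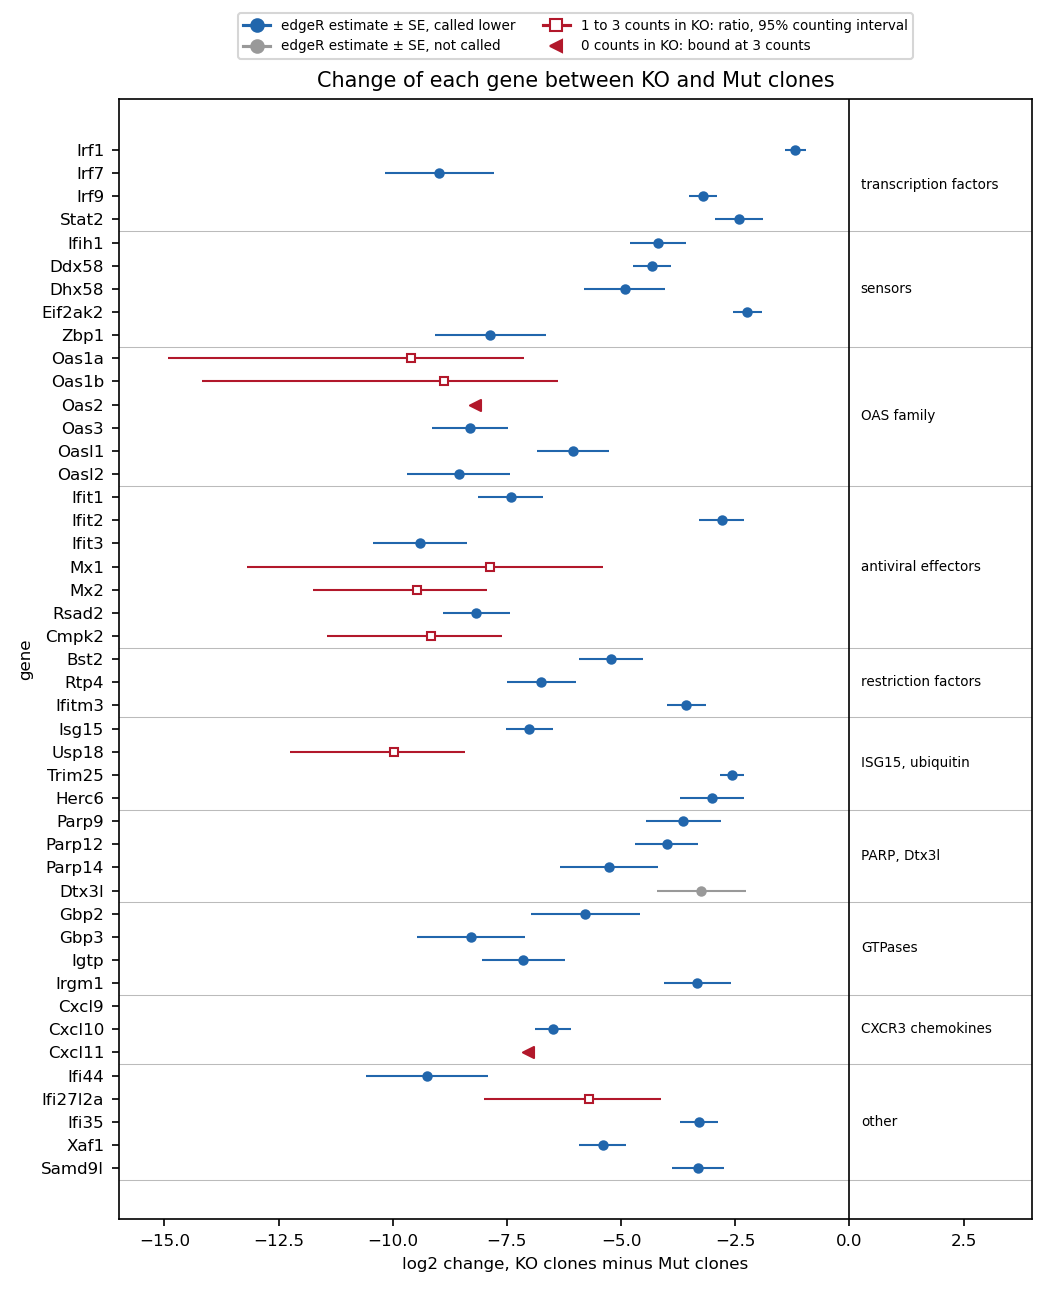
The x axis is the log2 change, KO minus Mut clones, for each gene by role. Circles are edgeR estimates with an SE derived from the test's F statistic. Open squares are ratios of genes with 1 to 3 counts in the KO clones with 95% counting intervals, and triangles are bounds for genes with none. All values shown lie left of 0, with Irf1 the nearest to it; Cxcl9 was not tested and has no point.

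The 4 transcription factors of the response were all called lower in the KO clones. Irf7, a factor that amplifies type I interferon transcription, had 8.52, 75.3 and 77.6 CPM in MSC 1, 2 and 3, 0.973 to 124 CPM (median 11.8 CPM) in TL1, and 1.77, 4.79, 5.38 and 484 CPM in TL2 1, 2a, 2b and 3. It had 377 and 74.2 CPM in Mut clones 1 and 2 and 0.549 and 0.318 CPM in KO clones 1 and 2. TL2 3 stood at the top and the KO clones at the bottom of all 17, and between the clones it fell by 8.98 (SE 1.19, edgeR adjusted p = 0.00887). Irf9, the DNA-binding subunit of the complex, ran from 38.4, 89.99 and 106 CPM in MSC through 11.3 to 93.6 CPM (median 32.5 CPM) in TL1 and 12.7, 27.8, 26.5 and 109 CPM in TL2 to 90.4 and 67.1 CPM in the Mut and 9.96 and 7.002 CPM in the KO clones. Its Mut clones lay within the range of the tumour lines, and its KO clones below all of them, and it fell by 3.20 (SE 0.31, adjusted p = 0.00113). Stat2, the partner that activates transcription, had 46.8, 139.8 and 202 CPM in MSC, 15.7 to 92.5 CPM (median 30.2 CPM) in TL1 and 15.3, 23.1, 31.4 and 216 CPM in TL2. Its Mut clones had 149.6 and 53.04 CPM and its KO clones 17.7 and 19.9 CPM, which is inside the range of the lines, and it fell by 2.42 (SE 0.52, adjusted p = 0.0249). Irf1, a factor best known as a target of type II interferon, had 51.3, 70.0 and 43.3 CPM in MSC, 41.4 to 60.5 CPM (median 50.4 CPM) in TL1, 37.4, 58.6, 56.0 and 60.6 CPM in TL2, 102 and 80.0 CPM in the Mut and 40.1 and 39.5 CPM in the KO clones. Its KO values lay below the 3 MSC and within the range of the tumour lines, while both Mut clones lay above every other library (adjusted p = 0.0137). Both Mut clones lay above all 10 lines for 2 further members, Rsad2 and Cxcl11, which makes 3 of 45 against 7.18% of all genes.

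All 5 sensors of foreign nucleic acid fell between the clones. Ddx58, which encodes the RNA sensor RIG-I, had 55.7, 185 and 141 CPM in MSC, 17.1 to 234 CPM (median 59.3 CPM) in TL1, 17.1, 41.4, 49.7 and 367 CPM in TL2, 361 and 169 CPM in the Mut and 12.7 and 13.5 CPM in the KO clones. It fell by 4.32 (SE 0.42, edgeR adjusted p = 0.00155), with both KO clones below every other library. Ifih1, which encodes MDA5, a sensor of long double-stranded RNA, had 13.04, 54.4 and 38.8 CPM in MSC, 4.43 to 45.4 CPM (median 19.4 CPM) in TL1, 6.44, 7.38, 9.36 and 98.8 CPM in TL2, 84.5 and 36.8 CPM in the Mut and 1.96 and 4.61 CPM in the KO clones. KO clone 2 overlapped the low end of TL1 there, and it fell by 4.19 (SE 0.61, adjusted p = 0.00799). Zbp1, a sensor of Z-form nucleic acids, had 2.34, 34.2 and 16.6 CPM in MSC, 1.28 to 90.9 CPM (median 7.10 CPM) in TL1, 0.394, 4.73, 2.59 and 139 CPM in TL2, 81.5 and 15.3 CPM in the Mut and 0.235 and 0.159 CPM in the KO clones. Its range over the lines was wide, with TL1 2a and TL2 3 at the top and the KO clones below all of them. It fell by 7.86 (SE 1.22, adjusted p = 0.0138). Dhx58, a regulator of these sensors, fell by 4.92 (SE 0.88), and Eif2ak2, the kinase PKR that halts translation on double-stranded RNA, fell by 2.24 (SE 0.32) with 145 and 84.9 CPM in the Mut and 22.4 and 26.1 CPM in the KO clones.

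The 2-5 oligoadenylate synthetases, which activate the RNA-degrading enzyme RNase L, and their relatives numbered 6 members, all called lower in the KO clones. Oasl2 had 9.86, 169 and 163 CPM in MSC, 6.98 to 362 CPM (median 26.6 CPM) in TL1, 5.71, 15.7, 16.4 and 536 CPM in TL2, 362 and 96.0 CPM in the Mut and 0.157 and 1.034 CPM in the KO clones. MSC 2 and 3 were above 8 of the 10 lines, and between the clones it fell by 8.56 (SE 1.12, edgeR adjusted p = 0.00864). Oas1a had 1.67, 19.8 and 14.5 CPM in MSC, 0 to 35.7 CPM (median 0.601 CPM) in TL1, 0.394, 1.10, 0.210 and 19.7 CPM in TL2 and 51.1 and 8.77 CPM in the Mut clones, with 817 counts in the Mut clones and 1 in the KO clones, a level 781-fold lower (95% counting interval 139.8 to 30894). Among the lines only TL1 2a and TL2 3 were above MSC 3, and reads of its near-identical neighbour Oas1g could be shared with it. Oas2 had 923 counts in the Mut clones and 0 in the KO clones and was at least 294-fold lower, against a floor of 3 counts over the KO group. Oas1b, a gene that carries a premature stop in common laboratory strains, had 489 counts in the Mut clones and 1 in the KO clones and was 467.6-fold lower (95% counting interval 83.5 to 18506). Oas3 fell by 8.31 (SE 0.83) and Oasl1 fell by 6.06 (SE 0.79). Oas3 had 0.501, 2.18 and 0.916 CPM in MSC and reached 124 CPM in TL1 2a and 202 CPM in TL2 3 against at most 3.83 CPM in the other 8 lines.

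Among the 7 genes of antiviral effectors, all called lower in the KO clones, Ifit1, Ifit2 and Ifit3 encode proteins that bind foreign RNA. Ifit1 had 11.1, 77.7 and 98.1 CPM in MSC, 9.83 to 168 CPM (median 45.7 CPM) in TL1, 10.05, 14.6, 17.2 and 352 CPM in TL2, 493 and 205 CPM in the Mut and 1.18 and 2.86 CPM in the KO clones. Both KO clones lay below every other library, and it fell by 7.42 (SE 0.72, edgeR adjusted p = 0.00322). Ifit3 had 2.84, 34.9 and 44.6 CPM in MSC, 1.05 to 49.4 CPM (median 11.7 CPM) in TL1, 1.25, 2.27, 3.63 and 719 CPM in TL2, 566 and 148 CPM in the Mut and 0.706 and 0.318 CPM in the KO clones. TL2 3 was far above the other 9 lines, and the KO clones were below every other library. It fell by 9.41 (SE 1.04, adjusted p = 0.00580), and reads of its near-identical copy Ifit3b could be shared with it. Ifit2, next to Ifit1 and Ifit3 on chromosome 19, had 11.6, 19.9 and 16.03 CPM in MSC, 18.2 to 46.5 CPM (median 31.5 CPM) in TL1, 23.2, 12.6, 26.1 and 358 CPM in TL2, 249 and 95.2 CPM in the Mut and 24.4 and 24.7 CPM in the KO clones. Its KO clones lay above all 3 MSC and within the range of the lines, and both Mut clones above every line but TL2 3. It fell by 2.80 (SE 0.49, adjusted p = 0.0134). Mx1, an antiviral GTPase gene with a deletion in C57BL/6 mice, stayed at or below 1.502 CPM in MSC and 9 of the lines and had 59.7 CPM in TL2 3 and 12.7 and 5.61 CPM in the Mut clones. It had 246 counts in the Mut clones and 1 in the KO clones and was 235-fold lower (95% counting interval 41.8 to 9328), and its neighbour Mx2 had 2235 counts in the Mut clones and 3 in the KO clones and was 712-fold lower (95% counting interval 243 to 3457).

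Rsad2, which encodes viperin, and Cmpk2, a nucleotide kinase gene next to it on chromosome 12, departed from the others in TL2 3. Rsad2 had 1.25, 11.8 and 3.43 CPM in MSC, 1.58 to 66.1 CPM (median 11.8 CPM) in TL1, 2.04, 5.11, 5.52 and 15.1 CPM in TL2, 258 and 92.2 CPM in the Mut and 0.549 and 0.637 CPM in the KO clones. In TL2 3, where most members peaked, it was below TL1 1b and TL1 2a, whereas both Mut clones were above every line. Cmpk2 had 7.85 CPM in TL2 3, 33.9 CPM in TL1 2a and 109 and 22.4 CPM in the Mut clones. The promoter of Rsad2 shown above holds 1 ISRE core, as does that of Cxcl10, which peaked in TL2 3. Between the clones Rsad2 fell by 8.17 (SE 0.73, edgeR adjusted p = 0.00206), and Cmpk2, with 1786 counts in the Mut clones and 3 in the KO clones, was 569-fold lower (95% counting interval 194 to 2763).

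The 3 restriction factors and the 4 genes around Isg15 were called lower in the KO clones too. Bst2, whose product tethers budding virions, had 21.8, 203 and 182 CPM in MSC, 10.8 to 671 CPM (median 37.5 CPM) in TL1, 18.4, 46.4, 47.5 and 586 CPM in TL2, 516 and 184 CPM in the Mut and 6.20 and 12.4 CPM in the KO clones, with KO clone 1 below every line and KO clone 2 just above TL1 1a. It fell by 5.22 (SE 0.70, edgeR adjusted p = 0.00875). Ifitm3, which blocks viral fusion in endosomes, had 267, 539.9 and 726 CPM in MSC, 118 to 611 CPM (median 366 CPM) in TL1, 253, 358, 337 and 1463 CPM in TL2, 1003 and 452 CPM in the Mut and 62.6 and 59.1 CPM in the KO clones. It fell by 3.57 (SE 0.42, adjusted p = 0.00332), with the KO clones below every other library. Rtp4 fell by 6.74 (SE 0.75). Isg15 had 14.7, 138 and 119 CPM in MSC, 6.88 to 260.5 CPM (median 28.7 CPM) in TL1, 6.90, 14.4, 12.2 and 383 CPM in TL2, 490.1 and 218 CPM in the Mut and 2.51 and 2.94 CPM in the KO clones. Both Mut clones were above the MSC, Mut clone 2 was below TL1 2a and TL2 3, and the KO clones were below every other library (adjusted p = 0.000701 between the clones). Usp18, the protease that removes Isg15 and restrains the receptor, had 5.26, 52.3 and 47.7 CPM in MSC, 0.524 to 139 CPM (median 5.63 CPM) in TL1, 0.460, 3.17, 6.499 and 121 CPM in TL2 and 182 and 50.04 CPM in the Mut clones. TL1 2a and TL2 3 were above all MSC and the other 8 lines below MSC 3. With 3145 counts in the Mut clones and 3 in the KO clones, it was 1002-fold lower (95% counting interval 343 to 4864). The ligase gene Herc6 fell by 3.01 (SE 0.70) and the ligase gene Trim25 fell by 2.57 (SE 0.26). Trim25 had 63.8 and 46.2 CPM in the KO clones, within the range of the lines, whose lowest value was 9.80 CPM in TL1 1a.

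Among the poly(ADP-ribose) polymerase genes, Parp9 fell by 3.64 (SE 0.82), Parp12 fell by 4.001 (SE 0.69) and Parp14 fell by 5.27 (SE 1.07). Dtx3l, which is next to Parp9 on chromosome 16, had 78.6 and 17.2 CPM in the Mut and 2.35 and 7.72 CPM in the KO clones. Without a stated strand setting, reads of such neighbours cannot be fully told apart. All 4 interferon-inducible GTPase genes among the members, a family that acts against intracellular parasites, fell. Related genes outside the members went both ways, with Gbp5 and Gbp7 called lower, Gbp4 called higher and Gbp6 not called. They are named after their values were seen. Gbp2 had 22.7, 37.0 and 32.9 CPM in MSC, 8.18 to 73.1 CPM (median 21.1 CPM) in TL1, 4.66, 22.3, 9.57 and 186 CPM in TL2, 279 and 66.6 CPM in the Mut and 5.41 and 0.796 CPM in the KO clones, and it fell by 5.78 (SE 1.20, edgeR adjusted p = 0.0306). Igtp had 6.94, 30.1 and 28.6 CPM in MSC, 3.08 to 48.9 CPM (median 8.14 CPM) in TL1, 1.71, 3.69, 5.73 and 45.5 CPM in TL2, 80.9 and 22.8 CPM in the Mut and 0.235 and 0.477 CPM in the KO clones, and it fell by 7.14 (SE 0.91, adjusted p = 0.00679). For both genes Mut clone 1 was above every line and Mut clone 2 below TL1 2a and TL2 3. Irgm1 had 32.7, 140.2 and 119 CPM in MSC, 14.9 to 133 CPM (median 29.5 CPM) in TL1, 7.49, 41.2, 40.7 and 168 CPM in TL2, 228 and 95.8 CPM in the Mut and 7.76 and 24.3 CPM in the KO clones, where both KO clones overlapped the lines, and it fell by 3.33 (SE 0.73, adjusted p = 0.0335). Gbp3 fell by 8.28 (SE 1.18).

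Of the 3 chemokine genes whose products attract T cells through Cxcr3, Cxcl10 had 3.18, 15.2 and 2.98 CPM in MSC, 6.002 to 82.4 CPM (median 22.2 CPM) in TL1, 25.2, 7.57, 6.43 and 683 CPM in TL2, 517 and 436 CPM in the Mut and 6.98 and 3.58 CPM in the KO clones. The KO clones lay within the range of the MSC and the Mut clones above every line but TL2 3, and the adjusted p of the fall (0.000199, edgeR) was the smallest among the members. Cxcl11 had 410 counts in the Mut clones and 0 in the KO clones and was at least 131-fold lower, and apart from TL2 3 at 10.2 CPM it stayed at or below 1.75 CPM in MSC and the lines. Cxcl9, a target mainly of type II interferon, did not exceed 5.21 CPM in any library. It had the lowest correlation with the median member over the 17 libraries (Pearson r = 0.53), while Isg15 had the highest (r = 0.99) with the others between. These correlations describe libraries that share depth and group, and each member also enters the median.

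**Figure D3:**
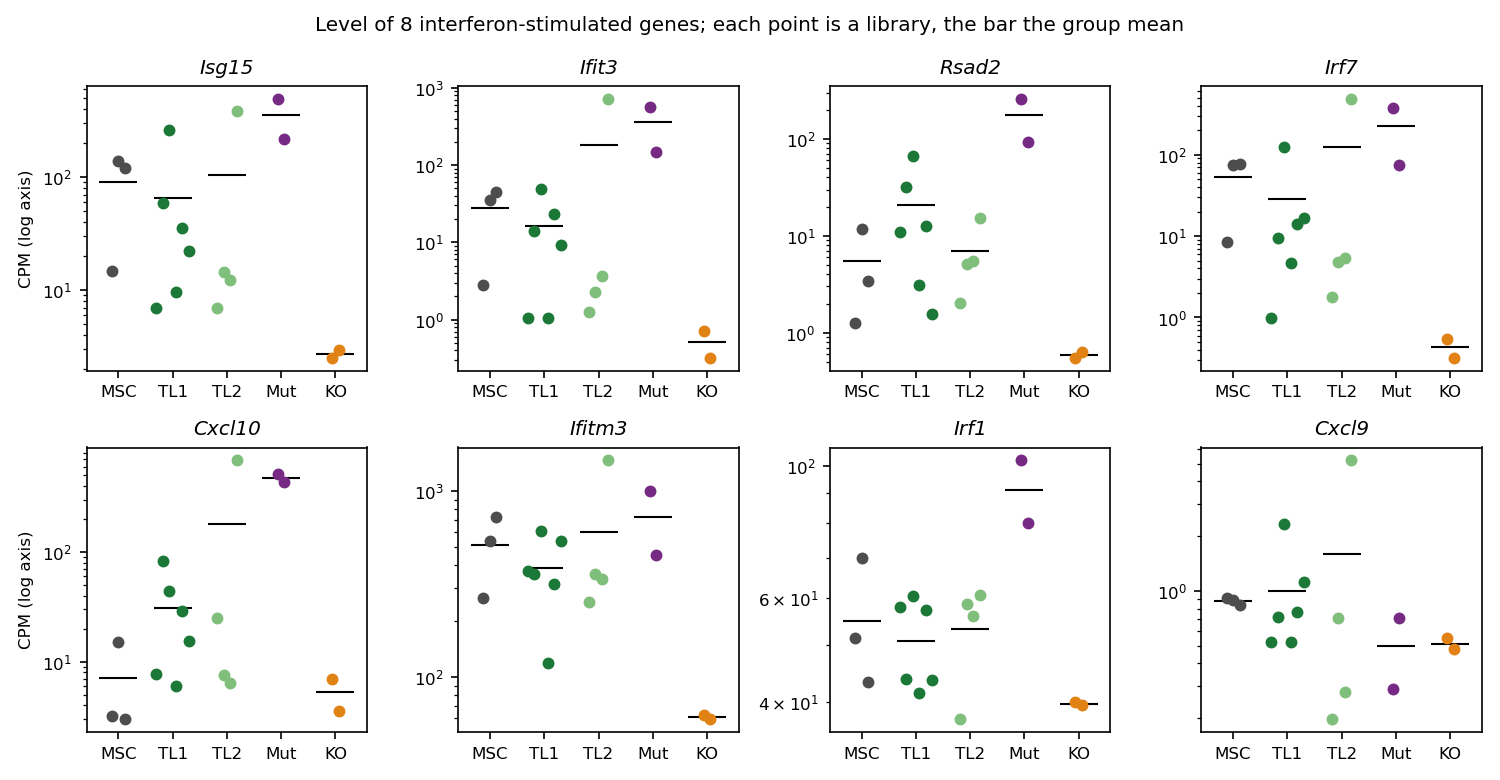
The y axis is CPM on a log scale and the x axis the group; each point is a library and the bar the group mean of 8 members. Isg15, Ifit3, Irf7 and Ifitm3 are lowest in the KO clones and high in TL2 3 and the Mut clones, Rsad2 is not high in TL2 3, Irf1 spans a narrow range, and Cxcl9 is low in all groups.

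Ifi27l2a, a mitochondrial protein gene with the close copy Ifi27l2b, had 0.0836, 2.75 and 7.40 CPM in MSC, 0.224 to 4.55 CPM (median 0.644 CPM) in TL1, 0.263, 2.07, 1.40 and 14.9 CPM in TL2 and 10.8 and 1.11 CPM in the Mut clones, and with 163 counts in the Mut clones and 3 in the KO clones it was 52.0-fold lower (95% counting interval 17.5 to 255). Among the other 4 genes, Ifi44 fell by 9.25 (SE 1.34), Ifi35 fell by 3.29 (SE 0.42), Xaf1 fell by 5.40 (SE 0.52) and Samd9l fell by 3.32 (SE 0.57). With the 9 genes of 3 or fewer KO counts set to their ratio or bound, the median over the 44 members was again -5.92. Per kilobase of merged exons, the Mut clones' mean level was highest for Ifitm3 (1073 CPM per kilobase), Isg15 (469) and Bst2 (387), and in the KO clones Ifitm3 was again the highest, at 89.8 CPM per kilobase. Both KO clones lay below all 10 tumour lines for 21 of 45 members, against 6.46% of all genes, and below all 3 MSC for 38, against 32.2%. Both Mut clones lay above all 3 MSC for 20 members, against 29.0%. Members with an ISRE match had a median change of -6.48 between the clones (n = 17) and matched members without one -3.32 (n = 15), given as a description with no test.

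Tumour lines were set against MSC to see what separates the lines from their cells of origin. None of the 45 members was called by edgeR, against 8.65% of 13262 genes, and 21 had positive (background 56.4%) and 24 negative changes with a median of -0.05. At an unadjusted p under 0.05 there were 2 (26.4% of all genes). Oasl1, at 1.25, 7.998 and 3.28 CPM in MSC, 6.38 to 109.8 CPM (median 17.3 CPM) in TL1 and 17.1, 8.35, 4.26 and 201 CPM in TL2, had the smallest adjusted p, at 3.48 (SE 1.40, adjusted p = 0.136) on the log2 scale. The other was Cxcl10 at 3.42 (SE 1.55, adjusted p = 0.182). DESeq2 called 1 member, Oasl1 (3.45, adjusted p = 0.00712), as did the fit with tumour lines summed per line number (3.52, adjusted p = 0.0408), and limma-voom called none. Stat2 changed by -1.28 (SE 0.72), and without TL2 3 by -2.11 (adjusted p = 0.0297), the 1 member called in that fit, in which the members' median moved to -1.25. The members' estimates had both signs. Stat2, Irf9, Dhx58, Oas1a and Samd9l had the most negative and Oas3, Cxcl11, Oasl1, Cxcl10 and Mx1 the most positive, none of them called. The errors were wide, as for Oas3 at 4.83 (SE 2.49), so their order is uncertain. Among the other genes of the pathway lists, 7 were called, all lower in the lines. By list they were 1 of 6 receptor genes tested, 1 of 5 kinase and STAT genes and 1 of 15 upstream sensors and adaptors. There were also 2 of 14 MHC class I genes and 2 of 55 other interferon-induced genes. None of 4 other interferon regulatory factor genes or 8 inhibitor genes was called. Over all genes, 8.65% were called in either direction. Ifngr1, Jak1 and Psmb8 are described below. Sp110 fell by 4.87 (SE 0.56, edgeR adjusted p = 0.000364) and Gm4951 fell by 3.58 (SE 0.84, adjusted p = 0.0220). Samhd1 fell by 1.26 (SE 0.32, adjusted p = 0.0292) and Psmb9 fell by 3.07 (SE 0.88, adjusted p = 0.0477).

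Between TL2 and TL1, which asks whether passage through a further tumour altered the lines, edgeR called none of the 45 members and none of 13262 genes (0%). At an unadjusted p under 0.05 there were 2 members, Mx1 at 4.50 (SE 1.55) and Ifit2 at 1.80 (SE 0.75), against 1.85% of all genes, and neither DESeq2 nor limma-voom called any member. The estimates were positive for 39 members (52.8% of all genes) with a median of 0.68. With the line number as a block the median was -0.05. Without TL2 3 it was -1.57, Mx1 changed by -0.87 and Ifit2 by -0.57. Over all alternatives 43 of the 45 members changed sign. The sign of the median thus depended on TL2 3 and on the block.

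**Figure D4:**
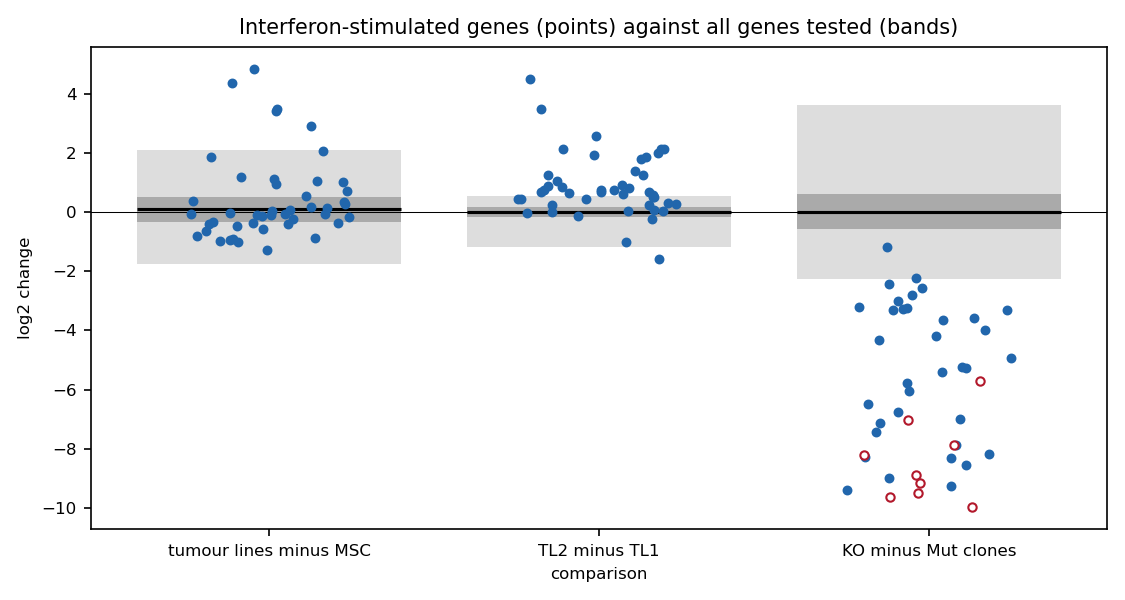
The y axis is the log2 change in the 3 comparisons; points are the interferon-stimulated genes tested, dark bands hold the middle 50% and light bands the middle 90% of all genes, and lines are their medians. Open points are ratios or bounds of genes with 3 or fewer counts in the KO clones. The 44 points of KO minus Mut lie below 0, while those of the other comparisons lie on both sides.

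Interferon genes themselves were at or near 0. The 20 type I and III genes had 55 counts in all over the 17 libraries, 13 of them had none, and Ifng had none. A count of 0 allows up to 3 counts, or 0.188 to 0.246 CPM in a library. Ifnb1 had at most 0.129 CPM, in TL2 3. No single gene had more than 9 counts in a library, in the libraries with high members or in the others.

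Between the clones 2 receptor genes were called higher. Ifnar1 had 80.2, 80.1 and 91.6 CPM in MSC, 57.4 to 88.7 CPM (median 76.0 CPM) in TL1, 59.1, 84.0, 85.0 and 69.4 CPM in TL2, 57.6 and 50.5 CPM in the Mut and 125 and 108 CPM in the KO clones, and rose by 1.12 (SE 0.22, edgeR adjusted p = 0.0133). Ifnar2 had 53.3, 55.6 and 58.7 CPM in MSC, 34.5 to 96.7 CPM (median 57.1 CPM) in TL1, 39.4, 49.3, 61.4 and 75.4 CPM in TL2, 47.5 and 33.8 CPM in the Mut and 76.4 and 88.3 CPM in the KO clones, and rose by 1.031 (SE 0.26, adjusted p = 0.0293). They were the 2 of 5 tested receptor genes called higher, against 1734 of all 12238 genes, and none was called lower. Ifngr1 had 38.3 and 23.2 CPM in the Mut and 60.2 and 59.0 CPM in the KO clones (adjusted p = 0.0545), and it was lower in tumour lines than in MSC by 0.97 (SE 0.18, adjusted p = 0.00651), at 96.2, 78.1 and 78.7 CPM in MSC and at most 65.2 CPM in the lines.

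The kinase gene Jak1 had 207 and 205 CPM in the Mut and 199 and 175 CPM in the KO clones and was called lower in tumour lines than in MSC by 0.57 (SE 0.16, adjusted p = 0.0453). Of 3 other interferon regulatory factor genes tested, Irf5 fell by 6.12 (SE 0.83, adjusted p = 0.00494), from 28.4 and 11.5 to 0.471 and 0.0796 CPM. Of 7 inhibitor genes tested 1 was called higher, which is near the share of all genes called higher (1734 of 12238). It was the phosphatase gene Ptpn1, which rose by 0.72 (SE 0.21, edgeR adjusted p = 0.0474). Socs1, the induced inhibitor of Jak kinases, had 20.2 and 15.3 CPM in the Mut and 9.65 and 6.52 CPM in the KO clones (adjusted p = 0.0595).

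**Figure D5:**
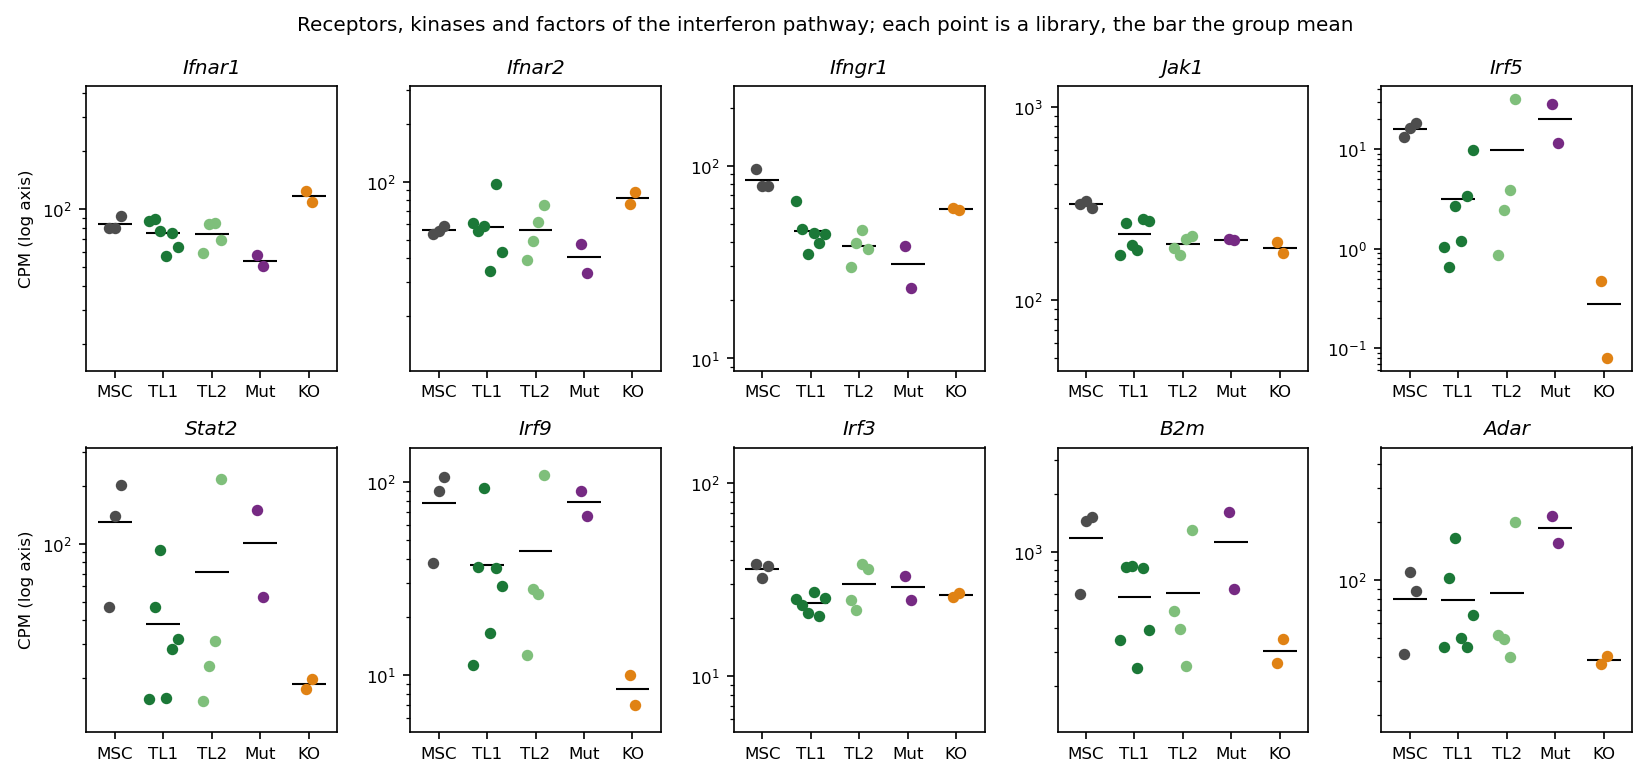
The y axis is CPM on a log scale, spanning at least 30-fold in every panel, and the x axis the group; each point is a library and the bar the group mean. Ifnar1 and Ifnar2 are higher in the KO than in the Mut clones, Jak1 and Irf3 differ little between them, and Stat2, Irf9, Irf5, B2m and Adar are lower in the KO clones.

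Over all genes tested between the clones, 12% were called lower and 1734 of 12238 were called higher. Of 15 upstream sensor and adaptor genes tested between the clones, 5 were called lower and 1 higher. Of those with the smallest adjusted p, Adar, the RNA editor that is itself induced by interferon, fell by 2.25 (SE 0.25), Trex1, an exonuclease for DNA in the cytosol, fell by 1.82 (SE 0.33), Tlr4 fell by 1.35 (SE 0.32), and Tmem173, which encodes STING, fell by 2.44 (SE 0.55). Of 13 genes of MHC class I presentation tested, 4 were called lower and none higher. H2-T23 fell by 4.23 (SE 0.61), H2-D1 fell by 2.73 (SE 0.63), B2m, the light chain, fell by 1.86 (SE 0.47), and Psme2 fell by 1.07 (SE 0.32). H2-K1 had 515 and 104 CPM in the Mut and 59.9 and 75.6 CPM in the KO clones and was not called (adjusted p = 0.107). Psmb8, an immunoproteasome subunit gene, had 46.8 and 1.58 CPM in the Mut clones and 0 counts in the KO clones, was not called between them (adjusted p = 0.113), and fell by 3.45 (SE 0.81) from MSC to tumour lines (adjusted p = 0.0213). Of 52 other interferon-induced genes tested between the clones, 28 were called lower and 1 higher. Of those with the smallest adjusted p, Apol9a fell by 6.12 (SE 0.46), Tor3a fell by 3.37 (SE 0.32), Ifitm1 fell by 5.003 (SE 0.56) and Cd274, which encodes the checkpoint ligand PD-L1, fell by 4.02 (SE 0.47). The gene called higher was Gbp4, by 3.34 (SE 0.73), named after its value was seen.

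Outside these lists, the 10 genes whose log2 level correlated best with the median member over the 17 libraries were Gm6548, AI607873, 2010002M12Rik, Chd5, Trim26, H2-Q5, Grn, Trim14, Phf11a and Ccl5, with Pearson r from 0.96 to 0.85 among 13640 genes ranked. The clones were among these libraries, so a low level in the KO clones is part of what chose the genes. Ccl5, a chemokine gene, had 62.7 and 40.9 CPM in the Mut and 1.25 and 0.557 CPM in the KO clones, and Grn, which encodes progranulin, had 869 and 697 CPM and 263 and 184 CPM.

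Markers of other cell types were read beside these levels. Of 14 macrophage and haematopoietic markers, 4 were tested between the clones, with Csf1r higher and Mpeg1 and Cd14 lower in the KO clones. Their summed level ranged over 12.3 to 40.0 CPM for MSC, 15.7 to 50.3 CPM for TL1 and 21.6 to 67.1 CPM for TL2. It was 20.4 and 14.2 CPM in the Mut clones and 7.22 and 7.40 CPM in the KO clones. In TL2 3 the sum was 53.8 CPM, higher than in every other library but TL2 1 (67.1 CPM). The pan-leukocyte gene Ptprc did not exceed 0.418 CPM in any library. Tyrobp, Itgam, Lyz2, Cybb and Emr1 were at 0 in TL2 3, so other markers of the list made up its sum. Endothelial markers summed to at most 4.33 CPM in any library. Epithelial markers, of which Krt18 fell and Krt14 rose between the clones, summed to 309 CPM in TL2 3, 5.10 to 71.9 CPM in the other lines, 111 and 34.9 CPM in the Mut and 3.61 and 3.50 CPM in the KO clones. Krt18 made up most of it in the Mut clones, at 109 and 33.8 CPM, and in TL2 3, at 253 CPM, against 0.235 and 0.0796 CPM in the KO clones. Epcam and Krt5 did not exceed 0.376 CPM. Of 12 stromal markers tested, 4 were higher and 2 lower in the KO clones, against 26.1% of all genes called in either direction. The called markers were Itgb1, Pdgfrb, Cxcl12, Ly6a, Pdgfra and Col1a1, and the median log2 change over the 12 tested was -0.14. Among the higher was Pdgfrb, by 5.31 (SE 0.69), named after its value was seen. Whether these differences have a part in the levels of the interferon-stimulated genes was not tested.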

How the data were processed

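Values were gene counts of 17 RNA libraries, deposited by the authors as whole numbers with no normalization. Per the submitters' processing notes, DESeq2 1.6.3, HTSeq 0.6.1p1, TopHat2 2.0.10 and cutadapt were used with the mm10 build. The sources used here give neither strand setting nor annotation. Columns were matched to samples by title, and 4 columns that match no sample were not used. Members were taken by symbol. Members, gene lists and tests were chosen with earlier results of these data known.

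Counts were tested with edgeR 4.0.16 in R 4.3.3 (TMM sizes, filterByExpr with a minimum count of 10, robust quasi-likelihood fit, Benjamini-Hochberg adjustment over all genes tested, threshold 0.05). DESeq2 1.42.0 and limma-voom (limma 3.58.1), other scalings, no filter, a block for line number, lines summed per number and leaving out each library were alternatives. The clones were fitted alone, and MSC, TL1 and TL2 together. The scripts were tested on simulated data. The SE given with an edgeR change is derived, as the absolute log2 change divided by the square root of the quasi-likelihood F statistic. Levels on the log2 scale are log2(CPM + 0.5). A group with 0 counts was set to 3 counts for a bound, and ratios with 1 to 3 counts have 95% exact intervals, which cover counting error only. Every pair of libraries of one group differed beyond sampling noise, so none was merged.

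The text describes 22 members by group (TL1 by its lowest, median and highest library), every called member, the interferon pathway genes fixed by list, up to 4 called genes per list by adjusted p, and the 10 genes most like the median member. Other names, such as Krt18, Mpeg1 and Gbp4, were chosen after their values were seen. Same-numbered TL1 and TL2 libraries deviated together from their group means (r = 0.45, 0.35 and 0.49), whereas MSC and TL1 did less so (r = 0.02, 0.05 and 0.18). Promoters are from RefSeq on GRCm38.p6, and exon lengths from the GENCODE annotation of GRCm38.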

Additional observations from a re-analysis of the deposited data

Results flagged for a closer look

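Among 46 groups of 4 or 6 libraries (22 members and their median in TL1 and in TL2), 7 held a library farther from the rest than Dixon's 95% limit allows, and chance alone gives about 1 in 20 groups. In TL2, line 3 stood above the others for Ifit1 (352 CPM), Ifit3 (719 CPM), Mx1 (59.7 CPM), Ifih1 (98.8 CPM) and the median member (151 CPM). Also in TL2, line 1 stood below the others for Irf1 (37.4 CPM). In TL1, line 2a stood above the others for Oas1a (35.7 CPM). The members share their libraries, so these are not separate events. TL2 3 also had the highest sum of epithelial markers (309 CPM), and the part of this in the members' levels was not tested.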

How the results depend on the processing

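Between the clones, members called lower numbered 43, and from 24 to 44 when 1 clone was left out. In the fit of all 17 libraries they numbered 5, with 820 of all genes called. DESeq2 called 44, limma-voom 31 and the fit without a count filter 36. All genes called numbered 3200, and 1347 to 1755 when 1 clone was left out. Between tumour lines and MSC, 1 member was called by DESeq2, 1 with lines summed per number, and 0 to 1 when 1 library was left out. All genes called were 1147, 2275 by DESeq2, and 304 to 1532 when 1 library was left out. Between TL2 and TL1, DESeq2 called 3 of all genes and none of the members. Leaving out 1 library moved Mx1 from -0.87 to 4.91 and Ifit2 from -0.57 to 2.17, both negative without TL2 3. With the line number as a replicate block, 0 members were called in either comparison of lines, and 1686 of all genes between tumour lines and MSC. The sign changed under at least 1 alternative for 26 of 45 members between tumour lines and MSC, 43 of 45 between TL2 and TL1, and 0 of 44 between the clones. Leaving out a library leaves fewer samples; the other causes were not tested. Depth limits members near 0.188 to 0.246 CPM, the level of 3 counts.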
